A study of Chlorocebus aethiops with 12 samples.

Results

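The metallothioneins are a family of small, cysteine-rich proteins, and 10 of their transcripts were followed on arrays of COS-1 cells given a glucocorticoid. The members were named by family and accession, with earlier results of these data known: MT2A, 8 MT1 isoforms (MT1A, MT1B, MT1E, MT1F, MT1G, MT1H, MT1M and MT1X) and MT3. All 10 had a probe on the array, out of 32379 accessions, and all 10 were among the 23757 accessions that passed the filter on dim probes. Together they had 15 probes, with 3 for MT2A, 2 each for MT1G, MT1X and MT3, and 1 for each of the others. COS-1 is a kidney line of the African green monkey that grows with a fibroblast-like shape. Every culture carried transfected glucocorticoid receptor (GR), either by itself or alongside MDFIC (MyoD family inhibitor domain containing), and was kept in charcoal-stripped serum, which is poor in steroids. At 48 h after transfection the cells received dexamethasone (Dex, 100 nM), a synthetic glucocorticoid, or vehicle for 6 h. The 4 groups were GR with Dex, GR with vehicle, GR+MDFIC with Dex and GR+MDFIC with vehicle, each with 3 biological replicates. No group lacked transfected GR, 1 cell line was used, and the labels give neither the species of the constructs nor the share of cells that took them up. What separates the replicates is not described further, so the p-values measure the spread between these samples.

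Metallothioneins bind zinc and copper through clusters of cysteine thiolates, buffer free zinc and take up toxic metals such as cadmium. Their transcription rises with zinc and cadmium through the metal-responsive factor MTF-1, and glucocorticoids are a classic second inducer, with a GR binding element described in the human MT2A promoter. The MT1 isoforms and MT2A are made in most tissues, kidney among them, whereas MT3 was first known from brain and is not part of the usual metal and hormone response.

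The probes were designed for human transcripts and read monkey RNA. Metallothionein transcripts are close paralogues, so a probe may bind RNA of more than 1 member, and the probe sequences were not used here. Each name below is that of the human transcript for which the probe was made. The accessions are MT2A NM_005953, MT1A NM_005946, MT1B NM_005947, MT1E NM_175617, MT1F NM_005949, MT1G NM_005950, MT1H NM_005951, MT1M NM_176870, MT1X NM_005952 and MT3 NM_005954. Gene names of other accessions were not given in the files, so the transfected genes and the labelled cell type were not checked against their transcripts.

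The 12 arrays lay on 3 slides. Slide 1 held all GR vehicle arrays and GR Dex replicate 1, and slide 2 held GR Dex replicates 2 and 3 with GR+MDFIC vehicle replicates 1 and 2. Slide 3 held all GR+MDFIC Dex arrays and GR+MDFIC vehicle replicate 3, and was processed with another release of the Agilent Feature Extraction software. The 75th percentile signal on slide 3, 364.9 to 413.7, was lower than the 757.7 to 948.0 of the others. The replicates correlated at 0.991 or more over the tested accessions, except GR+MDFIC vehicle replicate 3 with its partners on slide 2 (Pearson r = 0.981 and 0.980). Levels are given as log2 of the background-subtracted signal relative to the 75th percentile of the same array, so that 0 is a signal at that percentile. Levels of different probes are not comparable with each other, and only changes of a probe are set side by side. None of the 180 member values carried an outlier or saturation flag, and 179 were well above background.

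Dex raised 8 of the 10 metallothioneins in cells with GR alone (limma adjusted p under 0.05), where 4.4% of all tested accessions rose and 2.77% fell. The rises ran from 3.02-fold for MT2A to 1.54-fold for MT1F. MT1M and MT3 did not pass, and no member fell. The median log2 fold was 0.92 over the 10 members and 0.01 over all tested accessions. In RNA from whole cultures, more expressing cells and more RNA per cell cannot be told apart.

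MT2A, the main inducible isoform in human cells, had log2 levels of 4.53, 4.43 and 4.47 on the GR Dex arrays, against 2.93, 2.81 and 2.90 on the GR vehicle arrays. The lowest Dex array lay far above the highest vehicle array. Its log2 fold was 1.59 ± 0.05 (SE, limma adjusted p = 2.63e-07), the rank of 86 among the rises of 23757 accessions. Its other probes gave 1.57 and 1.64 in a fit of every probe on its own, so that the 3 probes of MT2A differed by less than 0.08. The differences among them did not pass an exact permutation test over arrays (adjusted p from 0.18 to 0.985 over 6 pairs of probes of the same accession).

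**Figure D1:**
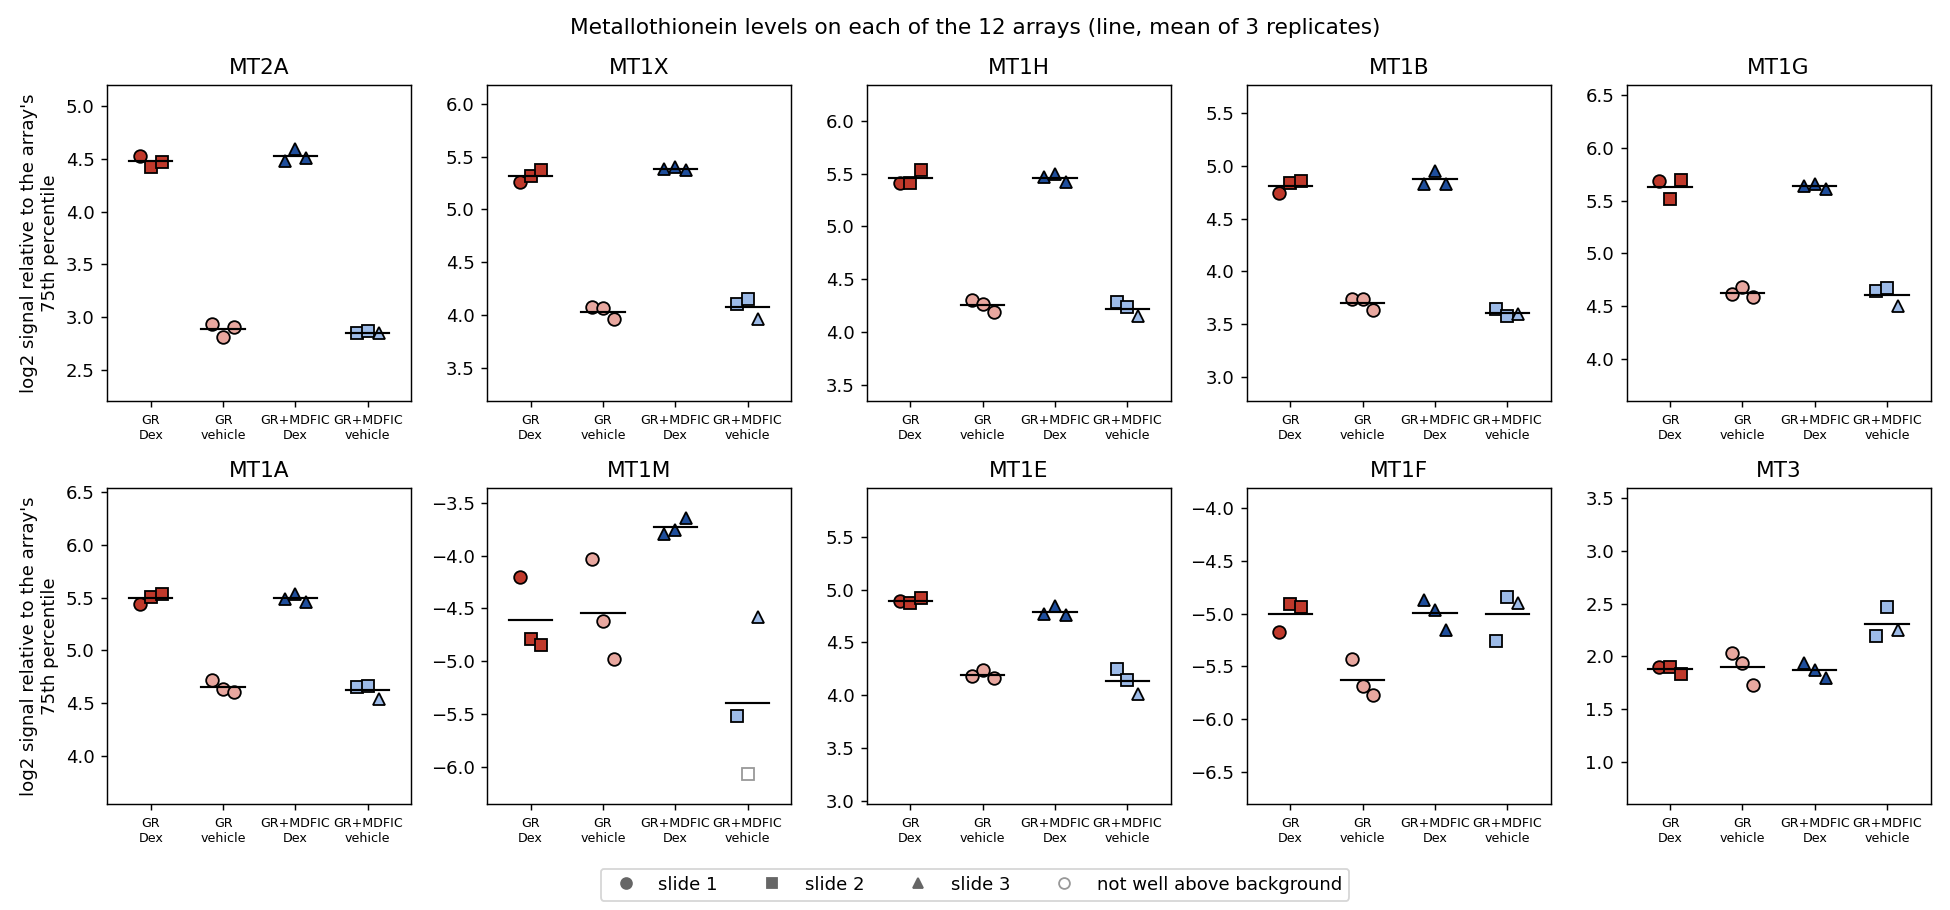
Log2 signal relative to the 75th percentile of each array (vertical axis, offset for each panel, with the same span in all) for the probe that stands for each member, by group. Points are arrays with the symbol giving the slide, lines are means of 3 replicates, and the open point of MT1M is the 1 value not well above background. MT2A, MT1X, MT1H, MT1B, MT1G, MT1A and MT1E are higher on every Dex array than on every vehicle array of either transfection.

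Of the MT1 isoforms, MT1X rose most in GR cells, with levels of 5.26, 5.32 and 5.38 with Dex, against 4.07, 4.06 and 3.96 with vehicle. That is a 2.44-fold rise (log2 fold 1.28 ± 0.06, SE, limma, Benjamini-Hochberg adjusted p = 2.01e-06). MT1H stood at 5.41, 5.41 and 5.54 with Dex, against 4.31, 4.26 and 4.19 with vehicle, and rose 2.30-fold. MT1B rose 2.16-fold and MT1G 2.01-fold, with 4.74, 4.84 and 4.86 against 3.74, 3.74 and 3.63 for MT1B. MT1A and MT1E made smaller steps, 1.79-fold and 1.63-fold. MT1A read 5.44, 5.51 and 5.54 with Dex, against 4.72, 4.64 and 4.61 with vehicle. In each of these 6 isoforms all Dex arrays were above all vehicle arrays, and the adjusted p of MT1E, the highest of the 6, was 8.13e-05 (limma).

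Groups that do not overlap were common on these arrays. In GR cells 8 members had every Dex array above every vehicle array, and so did 14.3% of all tested accessions. MT2A, MT1X, MT1H, MT1B and MT1G all rose by at least 1 on the log2 scale, as did 151 accessions in total that passed the test.

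MT1F was dim, with processed signals of 22.1 to 31.5 with Dex and 16.0 to 18.8 with vehicle. Its log2 levels were -5.18, -4.91 and -4.94 with Dex, against -5.43, -5.68 and -5.77 with vehicle, and the log2 fold was 0.62 ± 0.14 (SE, limma adjusted p = 0.0245). The 4 arrays of slide 1 gave the lowest GR values of MT1F, its Dex array included. Within slide 1 the difference was 0.45, and with slide as a block in limma the call was lost (limma adjusted p = 0.287, between 0.0139 and 0.287 across the alternatives). Dropping any one of GR vehicle replicates 2 and 3 or GR Dex replicates 2 and 3 ended the call as well (log2 fold 0.55 to 0.59, limma, Benjamini-Hochberg adjusted p 0.0718 to 0.0967).

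MT1M and MT3 did not pass in GR cells. MT1M, another dim isoform, read -4.20, -4.79 and -4.85 with Dex, against -4.03, -4.62 and -4.98 with vehicle, and the groups overlapped. Its interval of -0.89 to 0.74 on the log2 scale leaves room for a change of the size seen in MT1E (limma, 95%). MT3, the brain-type metallothionein, stood at 1.90, 1.90 and 1.84 with Dex, against 2.03, 1.94 and 1.73 with vehicle. Here the interval of -0.23 to 0.18 lies below the whole interval of MT1E, 0.57 to 0.84.

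In cells with GR and MDFIC, Dex again raised 8 of the 10 metallothioneins, where 6.6% of all tested accessions rose, and MT3 fell, as did 6.94%. The 7 members MT2A, MT1X, MT1H, MT1B, MT1G, MT1A and MT1E rose in both transfections. The eighth was MT1F with GR alone and MT1M with GR+MDFIC. The median log2 fold over the 10 members was 1.14, against -0.01 over all tested accessions.

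MT2A read 4.48, 4.59 and 4.51 on the GR+MDFIC Dex arrays, against 2.85, 2.86 and 2.85 on the vehicle arrays. The rise was 3.19-fold (log2 fold 1.67 ± 0.05, SE, limma, Benjamini-Hochberg adjusted p = 1.28e-07), and the other MT2A probes gave 1.55 and 1.63. More accessions moved far in these cells, so that MT2A was at rank 244 among the rises. The 3 vehicle arrays of MT2A lay within 0.02 of each other although 1 of them was on slide 3.

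MT1X stood at 5.38, 5.40 and 5.37 with Dex, against 4.10, 4.15 and 3.96 with vehicle, a 2.49-fold rise. MT1B read 4.83, 4.95 and 4.83 with Dex, against 3.64, 3.58 and 3.59 with vehicle, and rose 2.41-fold. MT1H, MT1G, MT1A and MT1E rose 2.36-fold, 2.04-fold, 1.83-fold and 1.58-fold. In all 6 the arrays of the groups did not overlap. The adjusted p of MT1E was again the highest of these 6, at 0.000103 (limma). All 8 rising members had every Dex array above every vehicle array, as had 15.9% of the tested accessions.

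The rises of these 7 members were also present within slides. On slide 1, GR Dex replicate 1 exceeded the mean of the 3 GR vehicle arrays by 1.65 for MT2A and by 0.70 for MT1E on the log2 scale. On slide 3, the 3 GR+MDFIC Dex arrays exceeded the single GR+MDFIC vehicle array by 1.68 for MT2A and by 0.78 for MT1E. The other 5 members lay between 0.79 and 1.23 on slide 1 and between 0.95 and 1.43 on slide 3. With slide as a block in limma all 7 passed in both transfections, with a highest adjusted p of 0.00211.

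**Figure D2:**
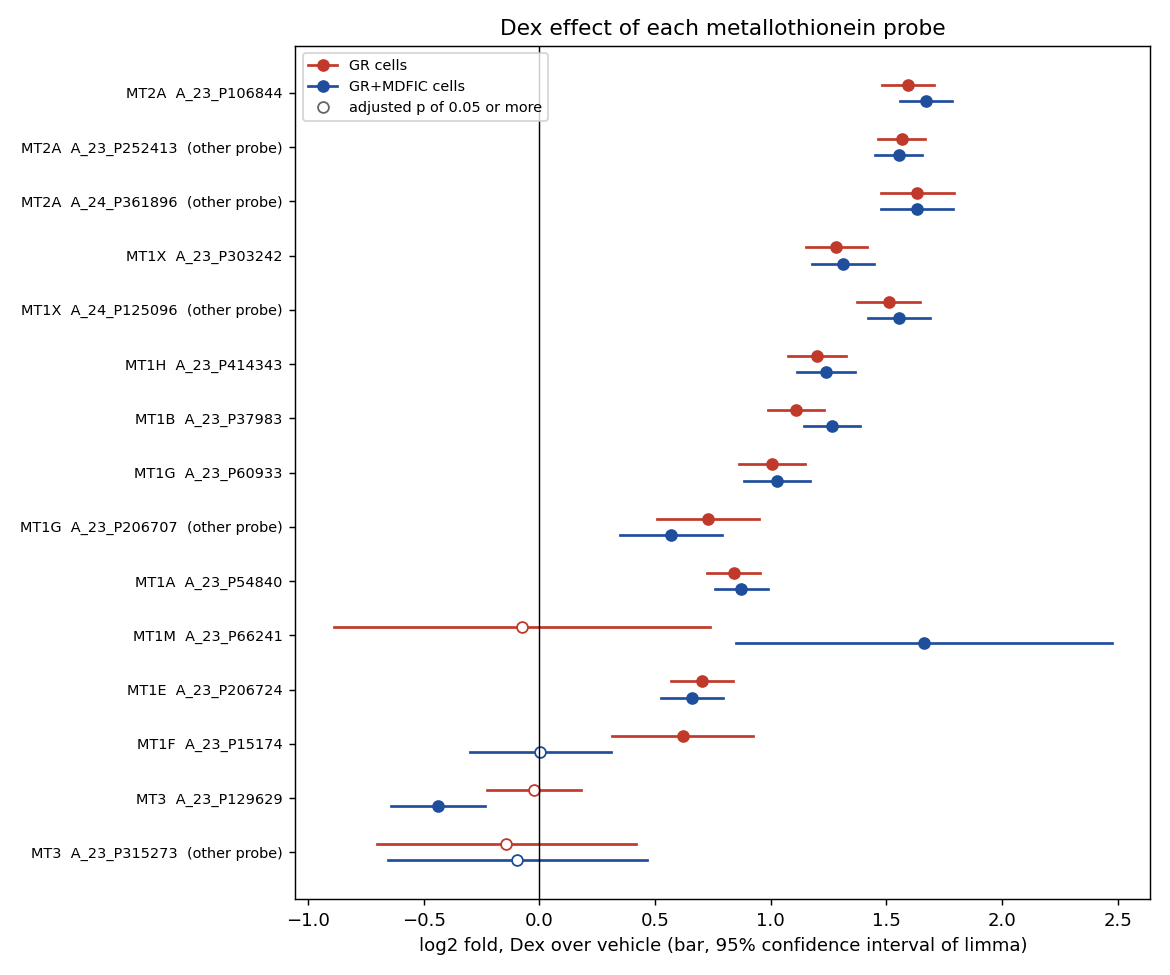
Log2 fold of Dex over vehicle (horizontal axis) for each of the 15 metallothionein probes in GR cells (red) and GR+MDFIC cells (blue), from a limma fit of every probe on its own. Bars are 95% confidence intervals and open points did not pass the test. The 3 MT2A probes lie between 1.55 and 1.67, and both MT3 probes lie below 0 in either transfection.

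In the GR+MDFIC cells MT1M passed. It read -3.79, -3.76 and -3.64 with Dex, against -5.52, -6.07 and -4.59 with vehicle, and 1 of the 3 vehicle arrays, replicate 2, was not well above background. The log2 fold was 1.66 ± 0.36 (SE, limma adjusted p = 0.016, between 0.00152 and 0.279 across the alternatives). The vehicle array that shared slide 3 with the Dex arrays was the highest of the 3, and within slide 3 the difference was 0.86. With slide as a block in limma the call was lost (limma adjusted p = 0.279), and dropping GR+MDFIC vehicle replicate 1 or 2, or Dex replicate 3 of the same cells, ended it too (log2 fold 1.32 to 1.62, limma adjusted p 0.0502 to 0.0597). Processed signals of MT1M were 26.3 to 33.1 with Dex and 11.2 to 17.9 with vehicle in these cells.

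MT1F did not pass in GR+MDFIC cells, with -4.87, -4.97 and -5.16 for Dex, against -5.26, -4.85 and -4.90 for vehicle, and an interval of -0.30 to 0.31 (limma, 95%). MT3 fell to 1.94, 1.87 and 1.79 with Dex, against 2.20, 2.46 and 2.25 with vehicle. The groups did not overlap, as for 16.2% of all tested accessions with every Dex array lower. Its log2 fold was -0.44 ± 0.09 (SE, limma adjusted p = 0.0125, between 0.00401 and 0.289 across the alternatives). The other MT3 probe, with processed signals of at most 58.3, gave -0.09 and did not pass, and the mean of both probes gave -0.27 (limma adjusted p = 0.289). With slide as a block the value was -0.38 and it did not pass either (limma adjusted p = 0.24).

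**Figure D3:**
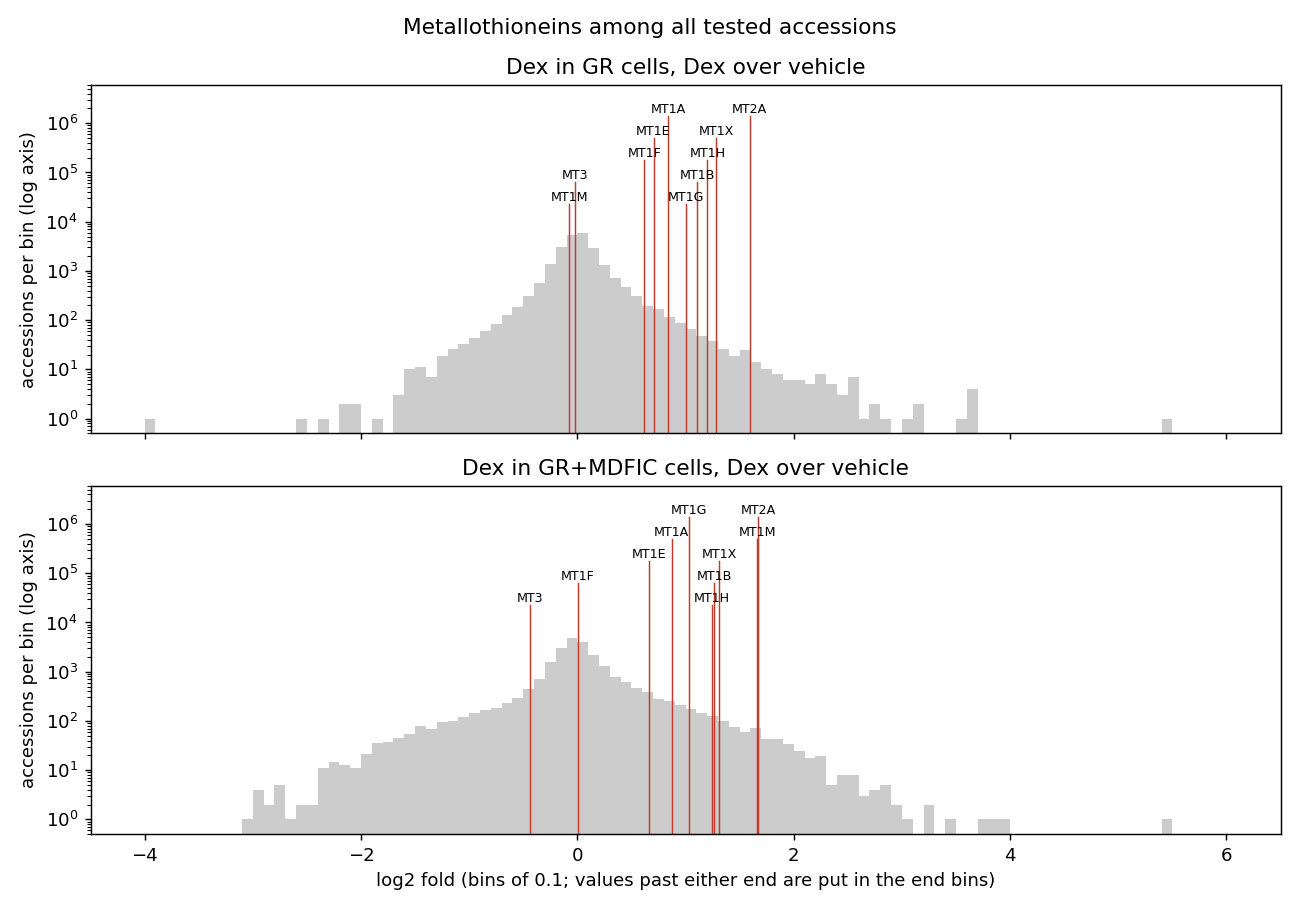
Number of accessions (vertical log axis) by log2 fold of Dex over vehicle (horizontal axis, bins of 0.1) among 23757 tested, for GR cells above and GR+MDFIC cells below. Red lines mark the 10 metallothioneins. MT2A lies in the upper tail, at 1.59 above and 1.67 below, and MT3 at -0.02 and -0.44.

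The size of the Dex effect was graded over the family. Averaged over both transfections, it was 1.63 on the log2 scale for MT2A, 1.30 for MT1X, 1.22 for MT1H, 1.19 for MT1B, 1.02 for MT1G, 0.86 for MT1A, 0.79 for MT1M, 0.68 for MT1E, 0.31 for MT1F and -0.23 for MT3. Differences between members were taken within each array, which removes the scaling of the array, and were tested by exact permutation of Dex and vehicle within each transfection (two-sided, 400 permutations, smallest possible p = 0.005). Of 45 pairs, 34 passed after Benjamini-Hochberg adjustment over the 45 pairs. Of the 11 that did not, 9 involved MT1M, whose replicates were the most scattered.

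Among the 7 members that rose in both transfections, 20 of 21 pairs differed. MT2A exceeded MT1X, the next in order, by 0.33 on average, with 0.31 for GR and 0.36 for GR+MDFIC (exact permutation test, adjusted p = 0.0075). MT1X exceeded MT1H by 0.08 (exact permutation test, adjusted p = 0.0205). MT1H and MT1B were the neighbours that could not be told apart, at 0.09 for GR and -0.03 for GR+MDFIC (exact permutation test, adjusted p = 0.359). MT1B then exceeded MT1G by 0.17, MT1G exceeded MT1A by 0.16, and MT1A exceeded MT1E by 0.17 (exact permutation test, adjusted p = 0.0205, 0.0145 and 0.0075). The permutations take no account of slide, which largely follows the groups. With slide as a block in limma the log2 fold in GR cells was 1.04 for MT1B and 1.06 for MT1G, so that their order turned, and in GR+MDFIC cells it was 1.28 and 1.14. The other neighbours among the 7 kept this order with slide as a block in both transfections.

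**Figure D4:**
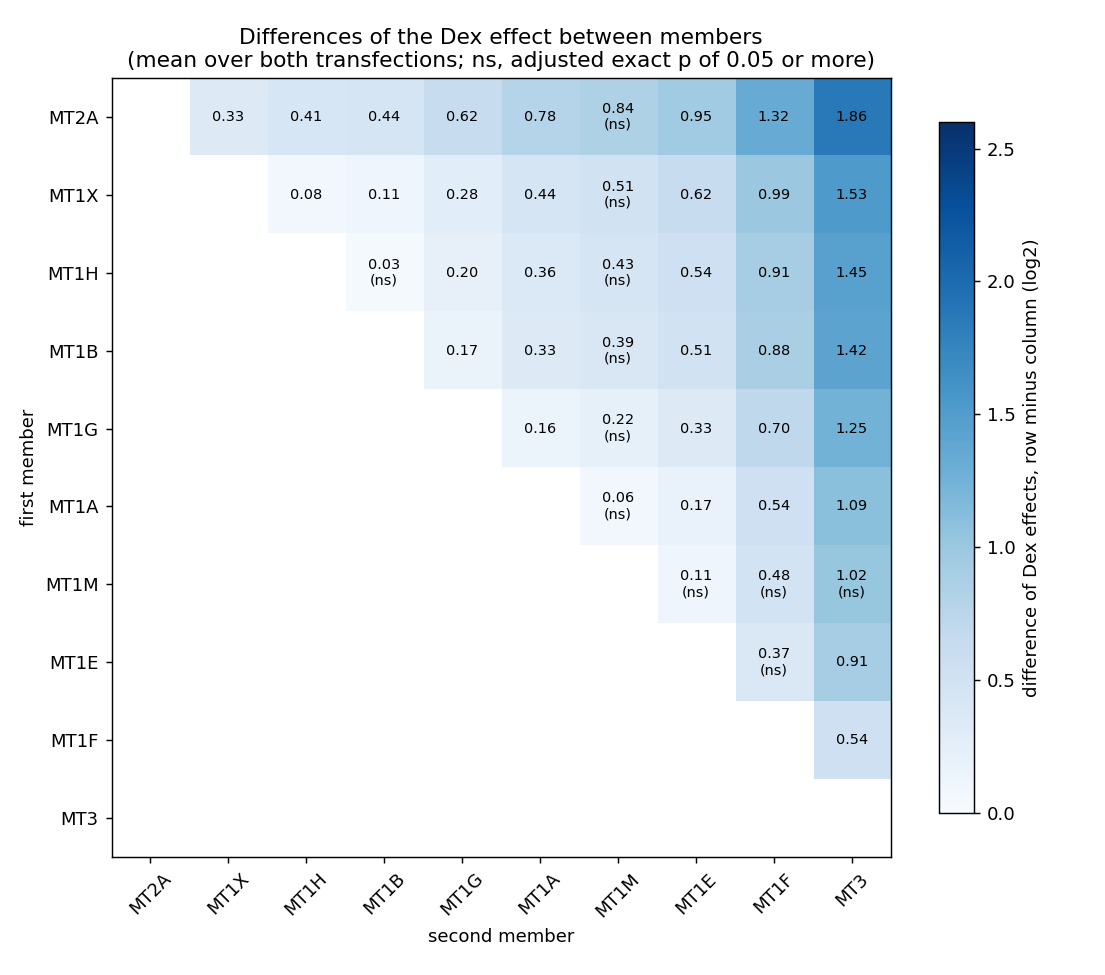
Difference of the Dex effect between members (log2, row minus column), averaged over GR and GR+MDFIC cells, with darker blue for larger differences. Pairs marked ns did not pass the exact permutation test after adjustment over 45 pairs. MT2A exceeds MT1X by 0.33 and MT3 by 1.86, and MT1H and MT1B differ by 0.03.

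Probes of the same accession differed by as much as neighbours in that order. The second MT1X probe had a log2 fold of 1.51 with GR and 1.56 with GR+MDFIC, 0.23 more on average than the probe that stands for MT1X (exact permutation test, adjusted p = 0.015 over 6 pairs of probes). Read from that probe, MT1X overlaps with MT2A, whose probe A_23_P252413 had 1.57 with GR and 1.55 with GR+MDFIC. The second MT1G probe had a log2 fold of 0.73 with GR and 0.57 with GR+MDFIC, 0.37 less than the first (exact permutation test, adjusted p = 0.015). Within slide 3 the second MT1X probe rose by 1.65, against 1.68, 1.55 and 1.60 for the MT2A probes. Read from its second probe, MT1G lay below MT1A, which had 0.84 with GR and 0.87 with GR+MDFIC. It then lay above MT1E with GR (0.70) and below it with GR+MDFIC (0.66). The places of MT2A above MT1X, and of MT1G above MT1A and MT1E, therefore hold for the probes that stand for them. They do not hold for every pair of their probes.

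The bright probes were read over an extended scanner range. A flag in the files marks spots taken from the lower of the scanner's gains and scaled up, and 34 of the 180 member values carried it. For MT1X, MT1H, MT1B and MT1E all 3 GR Dex arrays and none of the GR vehicle arrays carried it. In GR+MDFIC cells no array of either group carried it for these probes, and their folds there were 2.49, 2.36, 2.41 and 1.58, against 2.44, 2.30, 2.16 and 1.63 in GR cells. The probe that stands for MT2A and the second MT1X probe carried it on 2 GR Dex arrays each and on no other array. MT1A carried it on all GR arrays and 1 GR+MDFIC vehicle array. MT1G carried it on all arrays but 1 of GR+MDFIC vehicle. Whether the flag affected the folds was not tested.

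GR+MDFIC cells were set against GR cells to ask whether MDFIC moved the metallothioneins. In vehicle, 0 of 10 metallothioneins passed the limma test of GR+MDFIC against GR cells, where 0.884% of all tested accessions passed, and 3 of 10 had an unadjusted p under 0.05, as had 17.6% of all. In Dex, 0 of 10 passed, against 5.54% of all, and 1 had an unadjusted p under 0.05, as had 24.7% of all. The 95% intervals (limma) of the 7 members, from the probes that stand for them, ran from -0.22 to 0.17 in vehicle. In Dex they ran from -0.24 to 0.20, both on the log2 scale. The groups share no slide, and with slide as a block these intervals widened to -0.44 to 0.35 in vehicle and -0.19 to 0.43 in Dex. The blocked values themselves ran from -0.20 to 0.11 in vehicle and from 0.04 to 0.21 in Dex, and none of the 7 passed in limma (lowest adjusted p 0.547 and 0.746). MT2A averaged 2.85 ± 0.01 in GR+MDFIC vehicle and 2.88 ± 0.06 in GR vehicle (SD, n = 3 each). With Dex it averaged 4.52 ± 0.06 in GR+MDFIC Dex and 4.48 ± 0.05 in GR Dex (SD, n = 3 each). In a fit of every probe on its own, the other MT2A probes gave -0.10 and -0.12 in vehicle and -0.11 and -0.12 in Dex. Their intervals in Dex were -0.21 to -0.01 and -0.28 to 0.04 (limma, 95%). The second MT1G probe gave 0.03 in vehicle (-0.19 to 0.25) and -0.13 in Dex (-0.35 to 0.09). The second MT1X probe gave -0.002 and 0.04. None of these other probes passed.

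Neither MT3 nor MT1F passed, and their differences in vehicle were wider than the spread of their replicates. In vehicle MT3 stood at 2.20, 2.46 and 2.25 in GR+MDFIC cells, against 2.03, 1.94 and 1.73 in GR cells, with no overlap. The log2 difference was 0.40 ± 0.09 (SE, limma adjusted p = 0.0784, between 0.036 and 0.482 across the alternatives). MT1F read -5.26, -4.85 and -4.90 in GR+MDFIC vehicle, against -5.43, -5.68 and -5.77 in GR vehicle, a difference of 0.62 ± 0.14 (SE, limma adjusted p = 0.0739, between 0.0477 and 0.695 across the alternatives). The MT1F difference was 0.75 and passed when replicate 1 of GR+MDFIC vehicle was left out (limma adjusted p = 0.0477). Every GR+MDFIC array lay above every GR array for these 2 of 10 members, and for 12.1% of all tested accessions. A slide term, which links these groups only through the others, gave 0.46 for MT3 and 0.32 for MT1F (limma adjusted p = 0.482 and 0.695). In Dex the groups did not overlap for 2 members, MT1M and MT1E, against 32.2% of all tested accessions. MT1M was higher by 0.88 and MT1E was lower by 0.11 in GR+MDFIC cells (log2 differences 0.88 ± 0.36 and -0.11 ± 0.06, SE, limma adjusted p = 0.17 and 0.312). With normexp and quantile scaling, or with only the groups compared in the fit, MT1M passed (log2 differences 0.32 and 0.88, limma adjusted p = 0.0345 and 0.0415), and with slide as a block its value was -0.12.

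**Figure D5:**
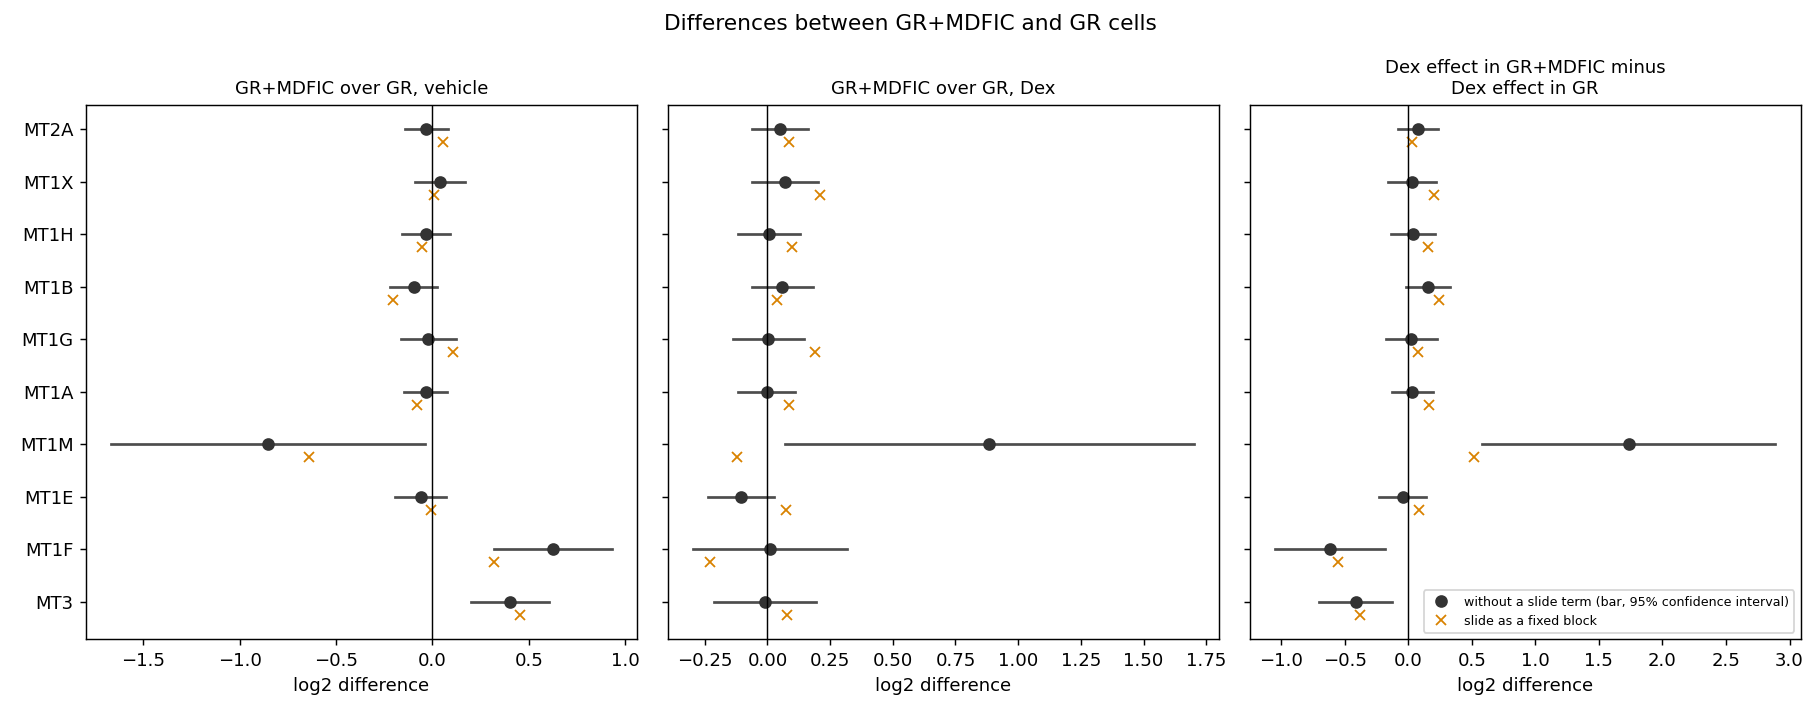
Log2 differences of GR+MDFIC minus GR cells in vehicle (left) and in Dex (middle), and the Dex effect in GR+MDFIC cells minus that in GR cells (right), for the 10 members. Points with bars are limma values with 95% confidence intervals, crosses are values with slide as a fixed block, and the horizontal axes differ. MT1M, MT1F and MT3 have the values farthest from 0 in the left and right panels, while in the middle panel MT1F and MT3 lie at 0.01 and -0.01.

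The test of whether MDFIC changed the Dex effect called 0 of 10 metallothioneins in limma, against 0.0589% of all tested accessions, and 3 members had an unadjusted p under 0.05, as had 9.85% of all. For the 7 members that rose in both transfections the effect in GR+MDFIC cells minus that in GR cells was between -0.04 and 0.16. For the probes that stand for them, the 95% intervals (limma) ran from -0.23 to 0.33. That is a Dex fold in GR+MDFIC cells of 0.851 to 1.26 times that in GR cells. With slide as a block the values ran from 0.03 for MT2A to 0.24 for MT1B and the intervals from -0.21 to 0.49, or 0.865 to 1.40 times, and none passed in limma. The value was 0.08 ± 0.07 for MT2A and 0.16 ± 0.08 for MT1B, the highest of the 7 (SE, limma adjusted p = 0.702 and 0.527). In a fit of every probe on its own, the second MT1G probe gave -0.16, with an interval of -0.47 to 0.15 (limma, 95%). The other MT2A probes gave -0.01 and -0.003, the second MT1X probe gave 0.05, and none of them passed.

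The 3 with an unadjusted p under 0.05 were MT1M, MT1F and MT3. Their differences of the Dex effects were 1.74 ± 0.51, -0.61 ± 0.19 and -0.41 ± 0.13 (SE, limma adjusted p = 0.497 for each). MT1M and MT1F had the dimmest probes of those that stand for members. With slide as a block the differences were 0.52 for MT1M, -0.55 for MT1F and -0.38 for MT3, and none passed in limma. With the vehicle array of slide 3, GR+MDFIC replicate 3, left out, the MT1M difference was 2.14 and passed (limma adjusted p = 0.0159, between 0.0159 and 1 across the alternatives). In that fit 7.61% of all tested accessions passed, against 0.0589% with all 12 arrays.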

How the data were processed

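Each array had a deposited file of linear intensities, from which Agilent Feature Extraction had subtracted the background and which were not normalized between arrays, per the file headers (version 12 per the submitters' processing notes). Other deposited values used were flags of 0 or 1 that mark background, saturation, outliers and scaling, per the file headers, and median spot and background signals. The median signals served only the normexp alternative, which started from them and not from the background-subtracted signal. The deposited series table held the same signals (largest difference 0) and was not used further.

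The 43376 non-control spots of each array were put on the log2 scale, the array's 75th percentile was subtracted and flagged outliers were set to missing. Repeated spots were averaged by probe. The filter required a probe to pass the background flag throughout the 3 arrays of some group and to have at least 2 unflagged arrays in each, and an accession was represented by its probe of highest mean (30179 probes, 23757 accessions). Means of the 4 groups were estimated over 12 arrays with limma 3.58.1 (under R 4.3.3, 8 residual degrees of freedom), two-sided, with Benjamini-Hochberg adjustment over all accessions and calls under 0.05. The fit was tested on simulated data. Figures were drawn with matplotlib 3.10.9.

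All members were named by rule. The members and lists were chosen with earlier results of these data known. The planned lists of metal transport, stress, neighbouring and marker genes were not used, since accessions could not be paired with names here, and for the same reason no sequence is shown. The number of arrays limits the precision.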

Additional observations from a re-analysis of the deposited data

How the results depend on the processing

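MT2A, MT1X, MT1H, MT1B, MT1G, MT1A and MT1E kept their rise with Dex in both transfections in all 371 checks over 27 alternatives (highest Benjamini-Hochberg adjusted p of limma 0.014). These changed background correction, scaling, filter, probe rule, outliers, slide terms, the groups fitted, the variance model and the threshold, or left out slide 3 or each array in turn. Not every check could move the log2 fold. The filter, outlier, variance and threshold alternatives left it unchanged for these members, and the fit of every probe used the same probes for them here. An array left out of 1 transfection plays no part in the log2 fold of the other. Dex called 7 or 8 members with GR and 7 to 9 with GR+MDFIC, and leaving out 1 array gave 7 to 8 and 8 to 9. Normexp with quantile scaling called 1 member for MDFIC in vehicle and 1 member in Dex, where the reported counts were 0. Fitting only the groups compared also called 1 for MDFIC in Dex, and an intensity trend with robust variance 1 for MDFIC in vehicle. Leaving out 1 array gave 0 to 1 for MDFIC in vehicle, 0 for MDFIC in Dex and 0 to 1 for the difference of the Dex effects. Of the 50 member values, 21 changed sign under some alternative, and no value was called with both signs. One of them, MT1M for MDFIC in Dex (0.88, and -0.12 with slide as a block), was called as higher under normexp with quantile scaling and with only the groups compared. With normexp and quantile scaling together the dim members gave 0.12 for MT1F with Dex in GR cells (not called) and 0.46 for MT1M with Dex in GR+MDFIC cells. Over all accessions, slide as a block gave 845 and 809 calls for Dex with GR and with GR+MDFIC, and 71 and 48 for MDFIC without and with Dex, where the fit without it gave 1704, 3217, 210 and 1317, and the cause was not tested. Without GR+MDFIC vehicle replicate 3 the calls over all accessions were 6336 for Dex with GR+MDFIC, 580 and 3112 for MDFIC without and with Dex, and 1815 for the difference of the Dex effects, which had 14. Leaving out each array in turn gave 1081 to 1775 calls for Dex with GR, 1816 to 6336 for Dex with GR+MDFIC, 89 to 580 and 96 to 3112 for MDFIC, and 2 to 1815 for the difference. The replicate numbers did not pair the arrays (correlations of same-numbered deviations from -0.108 to 0.0601). With a replicate block Dex called 7 members with GR and 9 with GR+MDFIC, and 0 were called in the other comparisons. MT1F, with Dex in GR cells, was the one lost (limma, Benjamini-Hochberg adjusted p = 0.0525). Low signal limits MT1M, MT1F and the second MT3 probe (processed signals of at most 58.3). Leaving out slide 3 gave no value where a group then had no array, and MT1M had none under the filter that required all 12 arrays above background.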

Other observations

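MT1G was taken as the starting point because its probe had the highest mean signal, which does not rank the transcripts. Across the 12 arrays its profile was, among the listed members, most like those of MT1H and MT1X (Pearson r = 0.996 and 0.995). It was least like those of MT1F, MT1M and MT3 (0.486, 0.540 and -0.552). MT2A, MT1A, MT1B and MT1E gave 0.993, 0.993, 0.990 and 0.986. These correlations run over arrays that fall into Dex and vehicle groups and share slides, and are a description only. Outside the listed members, NM_001039966 had the highest correlation of all 23757 accessions (r = 0.997), with log2 folds for Dex of 2.09 with GR and 2.32 with GR+MDFIC. NM_001276687 came next (r = 0.996), with log2 folds of 1.06 and 1.05, and NM_015193 after MT1H and MT1X (r = 0.994), with 2.51 and 2.78. The files pair none of these accessions with a gene name, so whether any of them is a further metallothionein was not checked.

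Slide 2 held GR Dex and GR+MDFIC vehicle arrays side by side, and this difference mixes Dex with MDFIC. There the GR+MDFIC vehicle arrays were lower than the GR Dex arrays by the log2 differences -1.59 for MT2A, -1.22 for MT1X and -0.71 for MT1E, while MT3 was higher by 0.46.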
